A study of Mus musculus with 3 samples.

Results

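Tetraspanins are a family of small membrane proteins that organise other receptors at the cell surface, and their genes were described here in mouse haematopoietic stem cells. Members were the genes whose symbol is Tspan followed by a number, the tetraspanin genes known by CD names (Cd9, Cd37, Cd53, Cd63, Cd81, Cd82 and Cd151), the urothelial Upk1a and Upk1b, and the retinal Prph2 and Rom1. Through the platform annotation 30 such genes were found among the 19938 genes measured, each with 1 probe set of its own. Tspan7 has no such probe set and is not analysed here. RNA came from bone marrow of wild-type C57Bl/6 mice aged 6 to 10 weeks, from cells sorted as lineage-negative, c-Kit+, Sca-1+, CD150+, CD48- and CD41- (KLS SLAM cells), a gate enriched for long-term repopulating stem cells. It was amplified, labelled with biotin and hybridised to 3 single-colour arrays, called arrays 1, 2 and 3 after their replicate numbers. All 3 belong to 1 group, so no genotype or treatment was compared. The labels do not say whether the arrays came from separate or pooled animals, so errors and p-values describe the spread between these 3 arrays.

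Each tetraspanin crosses the membrane 4 times and carries a large extracellular loop held by disulphide bonds. Members bind integrins, immunoglobulin-type proteins, proteases and one another in what is called the tetraspanin web, and several are palmitoylated. In blood cells they act in adhesion, in the trafficking of surface receptors and in the release of vesicles. In mice, Cd81, Cd82 and Cd53 have been linked to the quiescence of stem cells, and Cd9 has been used as a surface marker of them.

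Values are log2 of the deposited intensities. Since probe sets differ in affinity, a member's level was not ranked against another member's. It was set against olfactory, vomeronasal and taste receptor genes, which marrow cells are not expected to use. The limit of an array was the 95th percentile of these 1227 genes, at 6.30 on array 1, 5.98 on array 2 and 5.77 on array 3. A gene above the limit on all 3 arrays is called above the background range, and 36.8% of all genes were. The arrays did not carry the same sex-linked signal: Xist, the X inactivation RNA, was at 4.64, 9.99 and 4.95 on arrays 1, 2 and 3, and the Y-linked Uty at 7.04, 4.99 and 6.70. The sex of the mice is not stated in the labels, and array 2 differed from arrays 1 and 3 in both of these RNAs. Of the markers that check the sorted cells, Kit and Slamf1 (CD150) were above the range, as were 7 of 8 stem cell genes. Of the excluded markers, Cd48 was not, at 4.61, 5.62 and 6.14, and Itga2b (CD41) was, at 6.51, 6.36 and 6.24. Among markers of other cells, 7 of 8 granulocyte, 4 of 5 megakaryocyte, 2 of 6 monocyte and macrophage, 1 of 6 B cell, 0 of 5 T and NK cell, 1 of 4 erythroid, 1 of 5 mast cell, basophil and eosinophil, and 4 of 6 stroma and endothelium genes were above it. In bulk samples, fewer cells of a type and less RNA per cell cannot be told apart.

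Of the 30 tetraspanin genes, 13 were above the background range, 43.3% against 36.8% of all genes measured, a share close to that background. Another 3 were above the limit on 2 arrays, 6 on 1 array and 8 on none. The median of the members' means was 6.17 log2, against 5.96 for all genes. The counts differed by type: 6 of the 7 CD-named members, 2 of the 6 TspanC8 members, 5 of the 13 other TSPAN genes and 0 of the 4 retinal and urothelial genes were above the range. These counts of types were not tested against each other. By array, 14, 17 and 20 members passed the limit of arrays 1, 2 and 3, beside 39.3%, 49.1% and 55.2% of all genes.

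**Figure D1:**
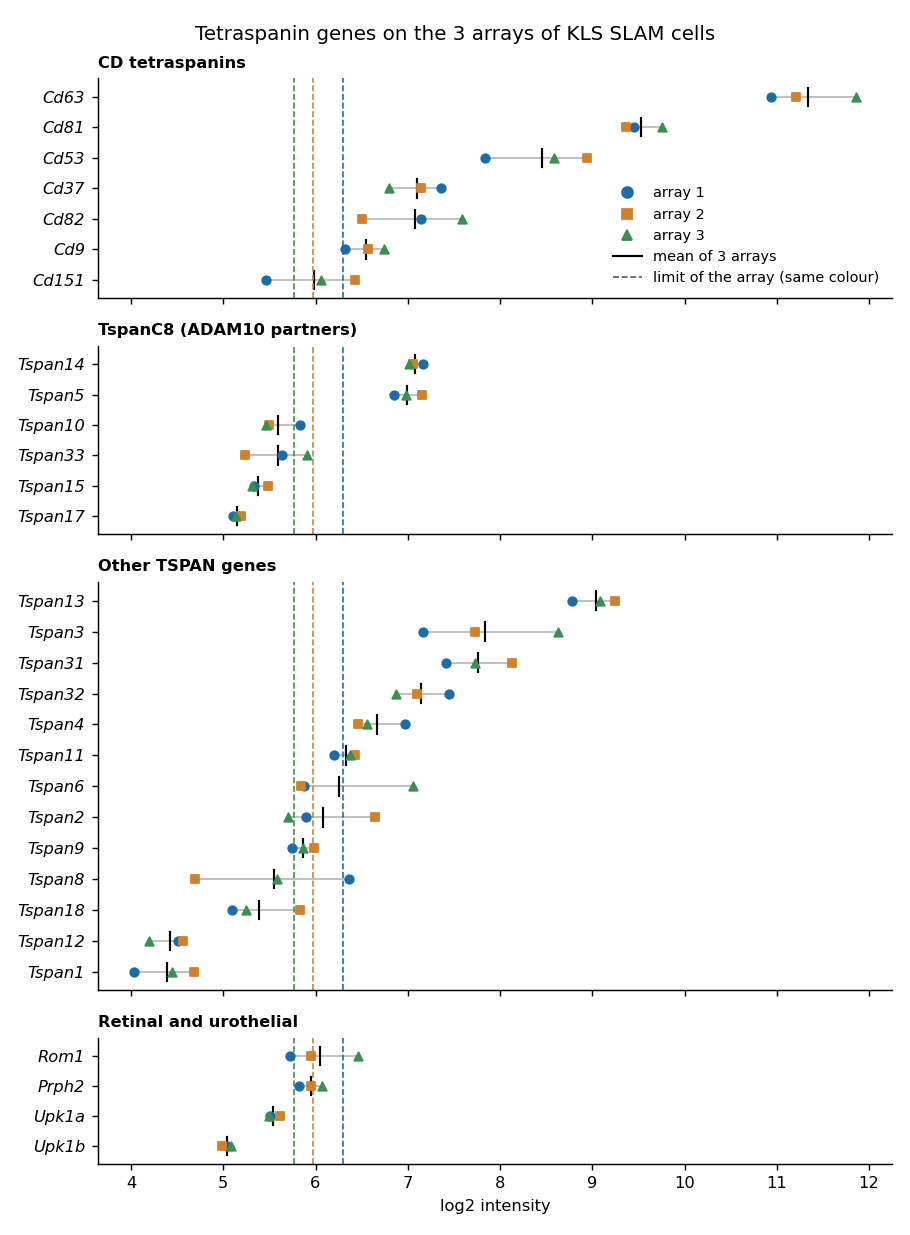
Log2 intensity (horizontal axis) of each of the 30 tetraspanin genes on arrays 1, 2 and 3 (points), with the mean (black bar) and the background limit of each array (dashed lines at 6.30, 5.98 and 5.77 in the colour of the array). Cd63, Cd81, Cd53 and Tspan13 lie well to the right of all limits, and the retinal and urothelial genes lie around or left of them.

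Promoter sequences are shown for 6 members, since the genes above the range had promoters of both CpG-rich and CpG-poor kinds. Each is the 250 bases before the annotated start, 5′ to 3′ on the strand of the gene, from RefSeq on GRCm38.p6, with CpG dinucleotides in capitals. Cd63 (chr10:128909095-128909344 on the plus strand), Tspan32 (chr7:143004796-143005045 on the plus strand) and Cd53 (chr3:106790150-106790399 on the minus strand) were above the range and hold 6, 1 and 2 CpG in these bases.
Cd63: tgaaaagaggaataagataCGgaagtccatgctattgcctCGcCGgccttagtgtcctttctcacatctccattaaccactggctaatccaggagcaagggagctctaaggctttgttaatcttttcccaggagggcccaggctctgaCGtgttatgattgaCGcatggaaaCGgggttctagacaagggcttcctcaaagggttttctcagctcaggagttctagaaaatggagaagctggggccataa
Tspan32: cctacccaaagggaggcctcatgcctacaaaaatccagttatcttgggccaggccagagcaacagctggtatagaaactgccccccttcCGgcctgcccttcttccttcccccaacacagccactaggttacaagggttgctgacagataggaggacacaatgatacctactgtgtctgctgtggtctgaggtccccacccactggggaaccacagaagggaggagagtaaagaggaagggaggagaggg
Cd53: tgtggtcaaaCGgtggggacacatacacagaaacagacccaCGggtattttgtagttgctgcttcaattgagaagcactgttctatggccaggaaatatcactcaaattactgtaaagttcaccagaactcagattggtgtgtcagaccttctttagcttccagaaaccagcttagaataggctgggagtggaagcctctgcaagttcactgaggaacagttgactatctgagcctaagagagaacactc

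Cd81 (chr7:143052500-143052749 on the plus strand) and Tspan14 (chr14:40966897-40967146 on the minus strand) were above the range too, with 16 and 22 CpG. Tspan17 (chr13:54789155-54789404 on the plus strand) was under all 3 limits and held 22 CpG as well.
Cd81: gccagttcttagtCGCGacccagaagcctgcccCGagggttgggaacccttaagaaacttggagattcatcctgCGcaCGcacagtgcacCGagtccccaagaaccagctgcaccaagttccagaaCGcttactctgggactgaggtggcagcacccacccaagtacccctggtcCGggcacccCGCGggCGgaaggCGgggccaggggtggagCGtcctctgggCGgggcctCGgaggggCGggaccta
Tspan14: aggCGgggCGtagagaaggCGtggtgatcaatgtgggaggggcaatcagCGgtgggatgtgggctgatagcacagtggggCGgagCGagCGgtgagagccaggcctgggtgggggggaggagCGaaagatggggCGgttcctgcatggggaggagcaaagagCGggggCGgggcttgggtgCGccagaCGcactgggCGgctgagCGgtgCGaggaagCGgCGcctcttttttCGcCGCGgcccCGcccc
Tspan17: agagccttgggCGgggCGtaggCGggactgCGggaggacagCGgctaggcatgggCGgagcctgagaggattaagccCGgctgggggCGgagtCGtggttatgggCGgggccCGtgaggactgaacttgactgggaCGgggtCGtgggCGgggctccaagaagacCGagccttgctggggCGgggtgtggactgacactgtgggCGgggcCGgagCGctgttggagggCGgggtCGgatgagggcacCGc

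A promoter was listed for 28 of the 30 members, and where a gene had several the first was used. Over the full window, which runs to 50 bases after the start, the ratio of observed to expected CpG was 0.33 for Cd63, 0.085 for Tspan32 and 0.25 for Cd53. It was 0.71 for Cd81, 0.89 for Tspan14 and 0.86 for Tspan17. With a ratio of at least 0.6 taken as CpG-rich, 8 of 15 CpG-rich and 5 of 13 CpG-poor members were above the background range. Over all genes with both a promoter and a probe set, 53.7% of 8153 CpG-rich and 20.6% of 7410 CpG-poor genes were. The 5 CpG-poor members above it were Cd63, Cd53, Cd37, Tspan32 and Cd82, the last with a ratio of 0.58, just under the threshold. CpG-poor members that were not above it included Tspan8, Tspan10, Upk1a and Prph2.

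Short motifs were searched on both strands of the full window. The GC box GGGCGG, bound by SP/KLF factors, occurred in 14 of 28 member promoters and in 35.9% of all 27025 gene promoters. The ETS core CGGAAG occurred in 5 of 28, in Cd63, Cd81, Tspan32, Tspan11 and Rom1, and in 17.2% of all promoters. The RUNX motif TGTGGT occurred in 4 of 28, in Cd53, Tspan3, Tspan32 and Tspan2, and in 16.9% of all. The GATA motif AGATAA occurred in 2 of 28 (11.4% of all), the E-box CACGTG in 1 (7.24% of all) and TATAAA in 2 (14.2% of all). In Cd81 an ETS core and a GC box share 3 bases, and no other member had different motifs that overlapped. Such matches describe letters in a window and were not tested for binding.

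**Figure D2:**
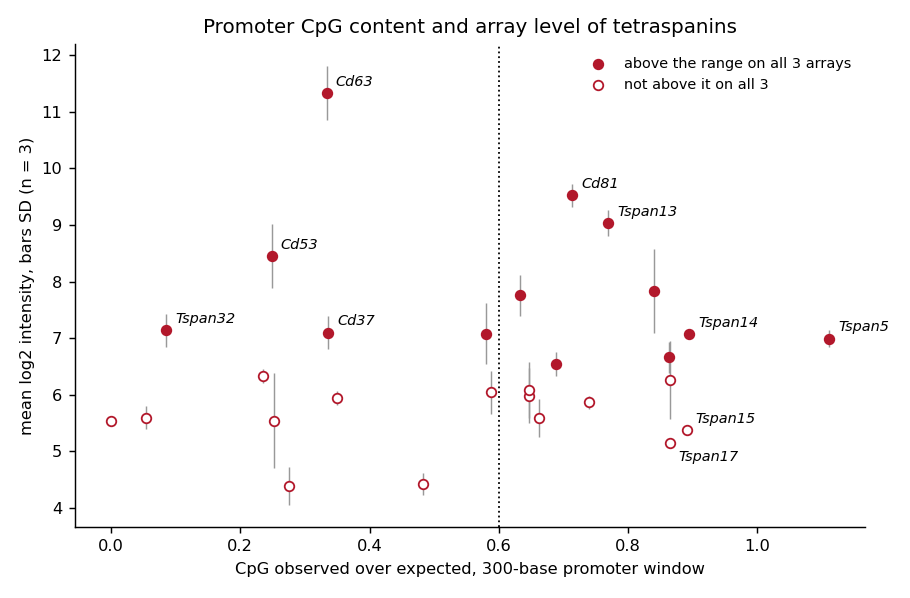
Ratio of observed to expected CpG in the promoter window (horizontal axis) against mean log2 intensity over 3 arrays (vertical axis, bars SD) for the 28 tetraspanin genes with a listed promoter. Filled points are above the background range on all 3 arrays, and they lie on both sides of the dotted line at 0.6.

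Among the CD-named members, Cd63 marks late endosomes, lysosome-related granules and exosomes. It was at 10.94, 11.21 and 11.86 log2 on arrays 1, 2 and 3, a mean of 11.34 ± 0.47 (SD, n = 3). Its lowest value lay 4.65 above the limit of its array, and 0 of the receptor genes were brighter on any array. Cd81, a widely expressed surface tetraspanin, was at 9.45, 9.36 and 9.76, a mean of 9.52 ± 0.21, again with 0 receptor genes brighter on any array. The values of each gene all lay far above the limits. Array 3 was the highest for both, but after removal of the drift between arrays described below it was so for Cd63 only.

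Cd53, a pan-leukocyte tetraspanin, was at 7.84, 8.95 and 8.58 on arrays 1, 2 and 3, a mean of 8.46 ± 0.56 (SD, n = 3). Array 1 was the lowest and array 2 the highest. The summed linear intensity of the 8 granulocyte markers was also lowest on array 1 and highest on array 2, at 9062, 15325 and 14198. That of the 8 measured stem cell genes had the same order, at 2904, 3989 and 3345. Gene by gene, only Mllt3 and Hoxb5 of these had it. Mecom, Tek and Esam were highest on array 1, Procr was highest on array 3, and Hlf and Fgd5 were lowest on array 3. Of the granulocyte markers 7 were lowest on array 1 and 4 had the same order of arrays as Cd53, while Mpo was highest on array 1. The 6 monocyte and macrophage markers summed to 854, 1529 and 1050, and without Lyz2, the brightest of them, to 320, 302 and 320. The part of these cells in the Cd53 values was not tested. Cd37, which is most abundant in mature B cells, was at 7.36, 7.14 and 6.79, a mean of 7.10 ± 0.29, with array 1 the highest. The B cell markers Cd79a, Ms4a1, Ebf1 and Blnk were below the limit on every array, and the summed intensity of that list was 267, 268 and 283. Of the other B cell markers, Cd79b was above the range at 6.53, 6.51 and 6.64, and Pax5 passed 2 of the limits at 6.00, 6.26 and 5.96. The part of B cells in the Cd37 values was not tested.

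Cd82 (KAI1), which associates with integrins and is also known as a metastasis suppressor, was at 7.15, 6.51 and 7.59, a mean of 7.08 ± 0.54 log2 (SD, n = 3). Array 2 was the lowest. Cd9, which binds integrins and acts in gamete fusion, was at 6.32, 6.57 and 6.74, a mean of 6.54 ± 0.21, and it was the member just inside the range, 0.02 above the limit of array 1. With the limit set by olfactory receptors alone it was not above the range. Cd151, the partner of laminin-binding integrins, was at 5.46, 6.42 and 6.06, a mean of 5.98 ± 0.49. It passed the limits of arrays 2 and 3 and lay 0.84 below that of array 1, so it was the 1 CD-named member not above the range.

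TspanC8 proteins, named for the number of cysteines in their large loop, escort the protease ADAM10 out of the endoplasmic reticulum and to the surface. Of the 6 measured, Tspan14 and Tspan5 were above the range. Tspan14 was at 7.16, 7.05 and 7.01, a mean of 7.07 ± 0.08 log2 (SD, n = 3). Tspan5 was at 6.85, 7.15 and 6.98, a mean of 6.99 ± 0.15. Both held nearly the same value on the 3 arrays.

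The other TspanC8 genes were mostly under the limits. Tspan33 (Penumbra), which is known from erythroid progenitors, was at 5.63, 5.23 and 5.90 and passed the limit of array 3 alone. Tspan10, an eye tetraspanin also called oculospanin, was at 5.83, 5.50 and 5.46. Tspan15 was at 5.34, 5.48 and 5.32, and Tspan17 at 5.11, 5.19 and 5.14. None of Tspan10, Tspan15 and Tspan17 passed the limit of any array. Of the erythroid markers Slc4a1 was above the range, and Klf1, Epor and Alas2 were not. Epor and Alas2 each passed 2 of the limits, and Klf1 was below every limit.

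Of the 13 other TSPAN genes, 5 were above the range. Tspan13 (NET-6) was at 8.78, 9.25 and 9.08, a mean of 9.04 ± 0.24 log2 (SD, n = 3), with 0 receptor genes brighter on any array. Tspan3, which in mice has been linked to the growth of acute myeloid leukaemia, was at 7.16, 7.73 and 8.62, a mean of 7.84 ± 0.74. Its 3 values were spread more widely than those of Tspan13, with array 1 the lowest and array 3 the highest. Tspan31, found amplified in sarcomas, was at 7.42, 8.13 and 7.73, a mean of 7.76 ± 0.36. Tspan32 (Tssc6), a haematopoietic tetraspanin that restrains T cell proliferation and supports platelet aggregation, was at 7.44, 7.10 and 6.87, a mean of 7.14 ± 0.29. Tspan4, which builds the migrasomes left behind by migrating cells, was at 6.97, 6.46 and 6.55, a mean of 6.66 ± 0.27. For these last 3 genes every value lay at least 0.49 above the limit of its array.

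Tspan11 and Tspan9 missed the limit of array 1 alone. Tspan11 was at 6.20, 6.42 and 6.37, and was the member just outside the range, 0.09 under the limit of array 1. Tspan9, a platelet tetraspanin that associates with the collagen receptor GPVI, was at 5.75, 5.98 and 5.87. It lay at the limit of array 2 and passed that of array 3 by 0.10. The megakaryocyte genes Pf4 and Gp9, for comparison, were above the range at 6.82, 7.15 and 7.71 and at 6.39, 6.13 and 6.76. Vwf and Itgb3 of that list were above it too, at 6.58, 6.30 and 6.38 and at 6.33, 6.12 and 6.23, both highest on array 1. Ppbp was not above it, at 6.44, 5.60 and 6.61.

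Single arrays carried the remaining signals above a limit. Tspan6, an X-linked gene whose product acts in endosomal sorting, was at 5.87, 5.84 and 7.05, and passed the limit of array 3 alone by 1.28. Tspan2, known from oligodendrocytes, was at 5.90, 6.65 and 5.71, and passed that of array 2 alone. Tspan8, a tetraspanin of gut and other epithelia, was at 6.36, 4.69 and 5.58, and passed that of array 1 alone by 0.06. Tspan18, which acts in endothelial calcium entry, Tspan12, a co-receptor for Norrin signalling in retinal vessels, and the epithelial Tspan1 were below every limit, with means of 5.39 ± 0.39, 4.42 ± 0.20 and 4.39 ± 0.33 (SD, n = 3).

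None of the retinal and urothelial tetraspanins was above the range. Upk1a and Upk1b, which form plaques on the bladder surface, were at 5.51, 5.62 and 5.50 and at 5.04, 4.98 and 5.08, below the limit on every array. Prph2 and Rom1, which shape photoreceptor discs, were at 5.83, 5.96 and 6.07 and at 5.73, 5.95 and 6.46. Each passed the limit of array 3 alone, by 0.30 and 0.69. On that array 12 receptor genes were brighter than Rom1.

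No tetraspanin passed the test of variation between the 3 arrays after adjustment, and neither did any other gene. By limma's one-sided F test of the variance of each gene against the trend, 0 of 30 members passed an adjusted p of 0.05 (Benjamini-Hochberg over all genes), with adjusted p from 0.894 to 0.998, and 0.00% of all 19938 genes passed. At an unadjusted p under 0.05 there were 2 members, Tspan8 and Tspan6, and 5.10% of all genes. The SD was above its trend in 14 of 30 members. For Tspan8 the SD was 0.83 log2, 3.94 times the trend at its level (limma, unadjusted p = 0.0106, adjusted p = 0.894). For Tspan6 it was 0.69, 2.98 times the trend (limma, unadjusted p = 0.0293, adjusted p = 0.955). Tspan3, Cd53 and Cd82 had SDs of 0.74, 0.56 and 0.54, with adjusted p of 0.976, 0.994 and 0.983 by limma. Tspan14, at 0.26 times the trend, was the steadiest of the members above the range. A p that misses the threshold does not show that values were equal. Xist, at 4.64, 9.99 and 4.95 on arrays 1, 2 and 3, was not called either. With 3 arrays and a trend fitted to these same genes, the test could miss even a difference of that size.

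**Figure D3:**
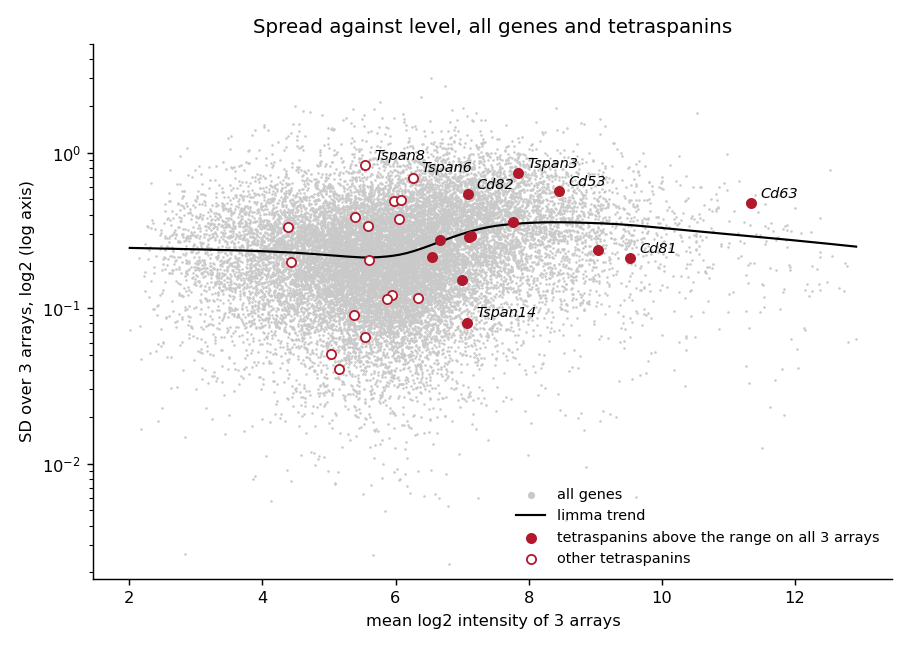
SD over 3 arrays (vertical log axis) against mean log2 intensity (horizontal axis) for all 19938 genes (grey), the limma trend (black line) and the 30 tetraspanin genes (filled where above the background range on all 3 arrays). The members scatter on both sides of the trend, with Tspan8 and Tspan6 highest relative to it.

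The members did not share one order of the arrays. The highest value lay on array 1 in 6 members, on array 2 in 14 and on array 3 in 10, beside 31.6%, 38.6% and 29.8% of all genes. The lowest value lay on array 1 in 15 members, on array 2 in 7 and on array 3 in 8, beside 34.1%, 28.8% and 37.1% of all genes. These shares were not tested against each other. Genes of all kinds drifted between arrays with their level, so each member was also set against the 500 genes nearest in mean level. Those genes lay a median of -0.18 log2 from their means on array 1 and 0.17 on array 3 at the level of Cd63, and -0.03 and 0.06 at that of Cd82. After removing this drift, the range over the arrays was 0.57 for Cd63, against 0.92 before, and 0.31 for Cd81, against 0.40 before. Cd81 was then at 0.13, -0.18 and 0.06 on arrays 1, 2 and 3 from its own mean, with array 1 the highest. The range stayed above 1 log2 for Tspan8 at 1.73, Tspan6 at 1.23 and Tspan3 at 1.19. Without the drift, Cd53 was at -0.47, 0.51 and -0.03 on arrays 1, 2 and 3 from its own mean. The median absolute difference between a pair of arrays was 0.28 to 0.32 over the members and 0.25 to 0.26 over all genes.

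**Figure D4:**
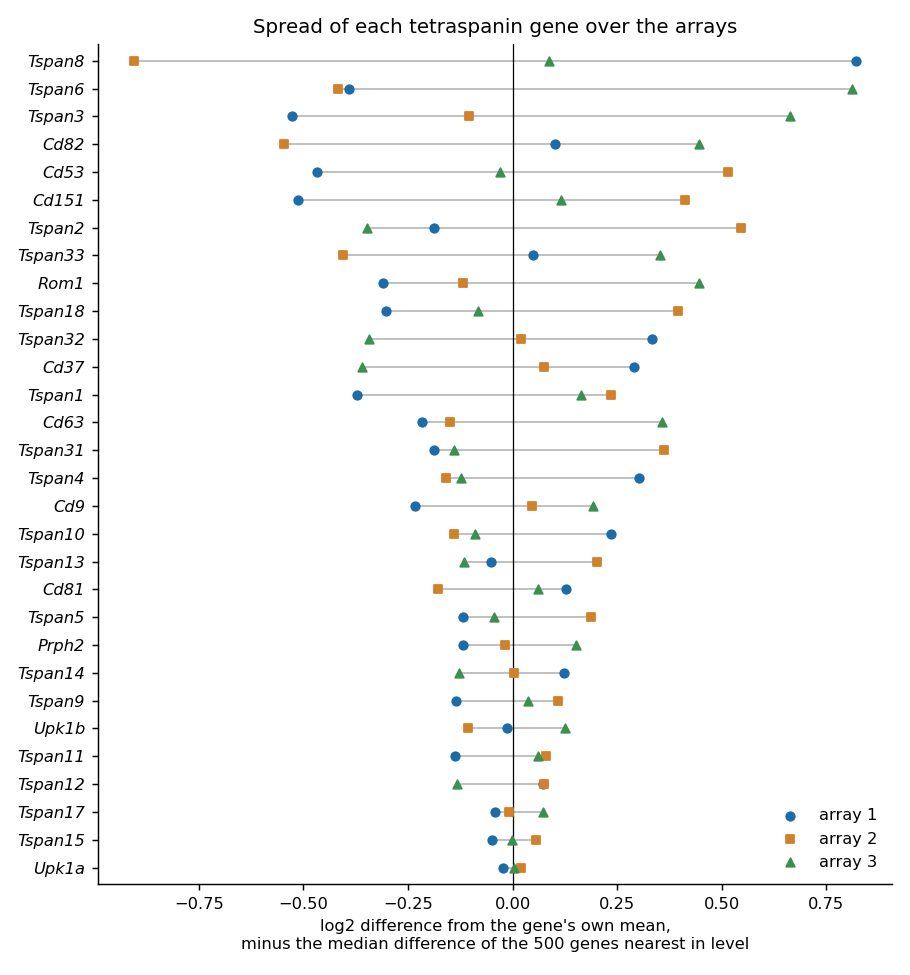
Log2 difference of each array from the gene's own mean, after removing the median difference of the 500 genes nearest in level (horizontal axis), for the 30 tetraspanin genes ordered by range. Tspan8 spans 1.73 and Upk1a 0.04, and no array is at the same end for all members.

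Several members are neighbours on the chromosome, and their levels were compared with the limits pair by pair. By gene order on GRCm38, 3 pairs have no coding gene between them. Tspan32 and Cd81, on chromosome 7, were both above the background range. Tspan11 and Tspan9, on chromosome 6, both missed the limit of array 1 alone. Of Tspan18 and Cd82, on chromosome 2, Cd82 was above the range and Tspan18 was below every limit. Another pair, Cd151 and Tspan4, has Polr2l between its genes, and there Tspan4 was above the range and Cd151 missed array 1.

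Among genes of the tetraspanin web, those of the endosome and exosome route of CD63 were above the range in 11 of 12 cases, against 36.8% of all genes, and in 7 with the 99th percentile of the receptor genes as the limit, against 17.4%. Sdcbp, which encodes syntenin, the adaptor that binds CD63 in exosome formation, was at 9.93, 10.19 and 10.12 log2. Pdcd6ip (ALIX) was at 8.52, 8.58 and 8.81, and the ESCRT gene Tsg101 at 6.78, 6.69 and 7.75. Hgs, Vps4a and Vps4b of the same sorting machinery had means of 6.20 ± 0.22, 6.93 ± 0.27 and 8.66 ± 0.17 (SD, n = 3). Tsg101 and Vps4b are each averages of 2 probe sets. Those of Tsg101 were both highest on array 3. Those of Vps4b moved in opposite directions, at 9.62, 9.43 and 9.35 and at 7.31, 8.10 and 8.15, so its averaged SD does not describe either. Rab27b, a GTPase of vesicle docking, was the 1 gene of the list not above the range, at 6.14, 6.45 and 6.30. It missed array 1 alone.

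Of the integrin genes whose products associate with tetraspanins, 5 of 9 were above the range, and 3 with the 99th percentile as the limit. Of all genes, 36.8% and 17.4% were. Itga4 and Itgb1, the subunits of VLA-4, were at 8.90, 9.01 and 8.79 and at 8.88, 8.56 and 9.09 log2. Itga6, a laminin receptor subunit and partner of CD151, was at 7.42, 8.65 and 7.93. On the same arrays Cd151 was at 5.46, 6.42 and 6.06, so array 1 was lowest and array 2 highest for both genes. Over all genes, array 1 was lowest in 34.1% and array 2 highest in 38.6%, and the share with this whole order was not counted. Of the other listed integrins only Itga7 had this order, at 5.56, 6.05 and 5.85. Itga3, Itgb1 and Itgb4 were lowest on array 2 and highest on array 3. A link between the values of Cd151 and Itga6 was not tested. Itga2b and Itgb3, the platelet integrin, were near the limits at 6.37 ± 0.14 and 6.23 ± 0.11 (SD, n = 3). Itga3, the other main laminin-binding partner of CD151, was below the limit on every array at 5.48 ± 0.23.

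The genes around ADAM10 were above the range in 6 of 8 cases, and in 3 with the 99th percentile of the receptor genes as the limit. The shares of all genes were 36.8% and 17.4%. Adam10 itself was at 7.89, 8.38 and 8.98, a mean of 8.41 ± 0.55 log2 (SD, n = 3), with array 1 the lowest. Adam10 was not called as varying between arrays (limma, unadjusted p = 0.204, adjusted p = 0.994). Its TspanC8 escorts Tspan14 and Tspan5 had SDs of 0.08 and 0.15 over the same arrays, and drift was not removed from any of these SDs. Adam17, a related sheddase that these tetraspanins do not escort, was at 7.59, 7.17 and 7.98, and Adam9 at 6.61, 6.56 and 6.66. The ADAM10 substrates Notch1, Notch2 and App were above the range with means of 6.40 ± 0.18, 7.08 ± 0.13 and 7.24 ± 0.03. Notch3 and Notch4 missed the limit of array 1 alone.

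Of the immunoglobulin and IFITM partners 3 of 7 were above the range, against 36.8% of all genes, and these were the IFITM genes. Ifitm1, Ifitm2 and Ifitm3, membrane proteins of antiviral defence of which IFITM1 associates with CD81, had means of 11.18 ± 0.22, 9.76 ± 0.37 and 11.88 ± 0.32 log2 (SD, n = 3). They are close paralogues, so their probe sets may share signal. Ifitm1 and Ifitm2 are averages of 2 and 3 probe sets. Those of Ifitm1 had SDs of 0.09 and 0.36, so its averaged SD does not describe either. Igsf8 (EWI-2) and Ptgfrn (EWI-F), direct partners of CD9 and CD81, were at 6.28, 5.99 and 6.05 and at 4.86, 5.06 and 4.91. Igsf8 missed the limit of array 1 alone, and Ptgfrn was below every limit, as was Cr2. The L6 family shares the 4-span layout with tetraspanins without being related to them. Of its 5 measured genes, Tm4sf1, Tm4sf4, Tm4sf5, Tm4sf19 and Tm4sf20, 0 passed the limit of any array. Of all genes, 39.3%, 49.1% and 55.2% passed the limits of arrays 1, 2 and 3.

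**Figure D5:**
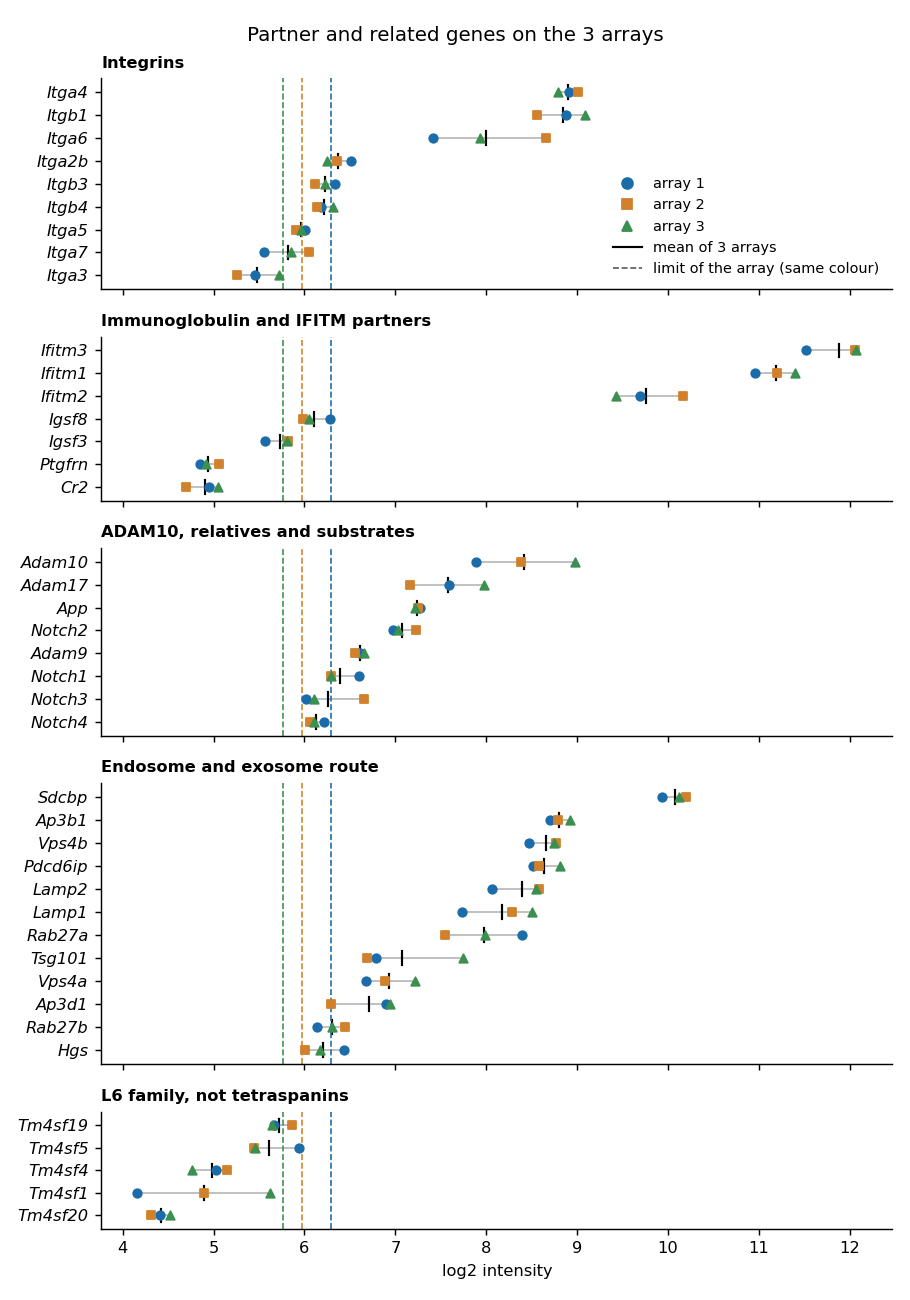
Log2 intensity (horizontal axis) on arrays 1, 2 and 3 (points) of the partner and related genes in 5 lists, with means (black bars) and the limits of the arrays (dashed lines). All endosome and exosome genes but Rab27b lie right of the limits on their arrays, and the 5 L6 family genes lie left of them.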

How the data were processed

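Expression was measured on 3 single-colour arrays of 1 group. Per the submitters' processing notes, the authors used Affymetrix Expression Console for RMA. Its version is not given in the sources used here, nor is the set of arrays in the RMA run. The deposited intensity values are linear, from 2.82 to 18384, and log2 of them was used; all are positive, so no pseudocount was needed.

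Of 35554 probe sets, 21789 name 1 gene in the platform annotation and were used, with log2 values averaged per gene (19938 genes, 999 with several probe sets). All 30 members matched a RefSeq gene ID of GRCm38.p6. RMA evens out the brightness of arrays run together, and a probe set's affinity stays in its value. The number of arrays limits the precision. Variation was tested in R 4.3.3 by limma 3.58.1, with a robust trend, 2 residual and 4.34 prior degrees of freedom. The test was also run on simulated data, seeded with genes whose SD was multiplied by more than any member's ratio to its trend. That run cannot say whether spreads of the members' size would be called. All members are named, with partner genes above the range or the first listed. Members and lists were chosen with earlier results of these data known. The marker and partner lists are given with their counts in the results. Alternatives were the limit, its receptor genes, probe set choice, quantile normalisation, the variance model, drift and leaving out each array.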

Additional observations from a re-analysis of the deposited data

How the results depend on the processing

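The count of tetraspanins above the background range was 13, and 12 to 16 under the other settings tried except the 99th percentile, which gave 9. With the 99th percentile Cd82, Cd9, Tspan4 and Tspan5 left the range, with lowest distances to the limit of -0.16, -0.80, -0.21 and -0.27 log2, and 17.4% of all genes were above it. Cd9 also left it with olfactory receptors alone as the limit (-0.023) and with probe sets naming several genes included (-0.018). The 90th percentile added Tspan2, Tspan6 and Tspan11, with 50.6% of all genes above. Without array 1 the count was 16, with Cd151, Tspan9 and Tspan11 added and 46.9% of all genes above; without array 2 or array 3 it was 13. Of the 41 measured partner and related genes 25 were above the range, against 36.8% of all genes, and 16 with the 99th percentile, against 17.4%. When each array was left out, 25 to 31 of them were above it, against 37.0% to 46.9% of all genes. The causes of these differences were not tested beyond the change of the limit itself. In the 8 alternatives for variation between arrays 0 tetraspanins and 0 genes of any kind were called by limma. Of the tetraspanins, 1 to 3 had an unadjusted p under 0.05 by limma. Tspan8 was not among them without array 2, or when only genes above the limit on at least 1 array were tested. Tspan6 was not among them without array 3. The median level of the members was 6.17 log2, and 6.11 to 6.32 when each array was left out. The number of members highest on array 3 was 10, 10 without drift and 11 after quantile normalisation. No paired analysis was possible because all arrays belong to 1 group. Signal near that of receptor genes limits what can be said of members close to a limit.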
